A study of Mus musculus with 42 samples.

Results

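The 6 RNA-seq libraries of mouse bone marrow mesenchymal stromal cells exposed to tributyltin (TBT) were set against the 6 libraries exposed to AGN194204, to see where the transcriptomes of an organotin and a selective rexinoid part. The 12 libraries were chosen by treatment label from 24 RNA libraries in a series of 42 samples. All cells were mesenchymal stem cells of the C57BL/6 strain, purchased at passage 6 and used at passage 9 to 10, and every treatment lasted 48 h after 24 h of attachment at 15000 cells per cm2. One group received 50 nM TBT and the other 100 nM AGN194204, so compound and dose cannot be told apart in any difference given here. Libraries of 0.1% DMSO (n = 6) and of 100 nM rosiglitazone (n = 6) were measured in the same way and serve as background. Nothing in the labels says that the 6 libraries of a group came from separate animals, so the p-values measure the spread between these cultures, which may be technical. Bulk RNA cannot tell fewer cells of a type from less RNA per cell.

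The retinoid X receptor (RXR) is a nuclear receptor that pairs with other nuclear receptors on DNA. Some partners, such as PPARγ (the master regulator of fat cell formation) and LXR (a sensor of cholesterol load), can be switched on through the RXR ligand alone, whereas the retinoic acid receptor (RAR) is usually described as answering mainly to its own ligand. AGN194204 is an RXR-selective agonist, TBT is a former antifouling biocide that binds both RXR and PPARγ, and rosiglitazone is a drug that activates PPARγ. Mesenchymal stromal cells can become fat, bone or cartilage cells, and RXR and PPARγ ligands are known to push them towards fat.

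The stromal identity of the cells was visible in both groups. Cd44, an adhesion receptor of stromal cells, stood at 291 to 310 counts per 1000000 (CPM, scaled between libraries) under TBT and at 293 to 308 under AGN194204. Itgb1, Ly6a, Thy1, Vcam1, Pdgfra and Pdgfrb were also present and not called different. The stromal markers Eng and Nt5e were scarce and not called either. Eng ran from 5.95 to 8.03 CPM under TBT and from 5.47 to 7.99 under AGN194204. Nt5e ran from 2.77 to 7.33 and from 3.60 to 5.12 CPM. Of the genes that define blood and vessel cells, the leukocyte gene Ptprc had 2 counts in the 6 TBT libraries together and 1 in the 6 AGN194204 libraries, Hbb-bs of red cells had none, and the endothelial genes Cdh5 and Pecam1 had 2 and 51 counts under TBT and 6 and 34 under AGN194204. The summed level of 8 endothelial markers ran from 7.28 to 8.61 CPM under TBT and from 6.38 to 8.48 under AGN194204. The summed level of 17 macrophage and blood cell markers ran from 57.5 to 70.0 CPM under TBT and from 60.4 to 71.6 under AGN194204, and 4 of the 17 had no count in the 12 libraries. Most of that sum came from the 4 markers with enough counts to be tested. Each of the rest had at most 15 counts in the 6 TBT libraries together (Mrc1) and 21 in the 6 AGN194204 libraries (Cd74).

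Between 4023214 and 5347365 counts fell on genes in the TBT libraries and between 3801758 and 4877089 in the AGN194204 libraries. Depth, the share of counts outside genes, the share of ambiguous reads, the spike-in level, the mitochondrial share and the scaling factor did not separate the groups (exact two-sided permutation tests, n = 6 and 6, lowest p = 0.385, all 6 adjusted p = 0.844). The second TBT library stood apart from the rest. It was the deepest, as the second library also was among the DMSO, rosiglitazone and AGN194204 libraries (5087215, 4601891 and 4877089 counts on genes). In the second TBT library 24.3% of the counts lay outside genes. Its count profile differed more from the other 5 TBT libraries (chi-square per degree of freedom 3.43 to 4.87) than any other pair within a group did (1.45 to 2.88). On the first principal component of the 12 libraries, which held 13.5% of the variance, TBT libraries ran from -22.9 to 8.53 and AGN194204 libraries from -3.39 to 17.04, so the groups overlapped.

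Few genes were called different between the compounds, and most called differences were small. Of 12529 genes tested, 51 were higher under TBT than under AGN194204 (0.407%) and 55 were lower (0.439%), which together is 0.846% (edgeR quasi-likelihood test over all 24 RNA libraries, Benjamini-Hochberg adjusted p under 0.05). An unadjusted p under 0.05 was reached by 1269 genes, 10.1% of those tested. Only 1 of the higher and 2 of the lower genes differed at least 2-fold, and 10 in each direction differed at least 1.5-fold. The median size of a called difference was 0.27 on the log2 scale among higher and 0.34 among lower genes. Against DMSO, by contrast, the same test called 3623 genes for TBT (28.9%) and 3014 for AGN194204 (24.1%), and since those comparisons share their DMSO libraries they are given here only as each gene's own values side by side. Without the second TBT library the counts were 66 higher and 66 lower, of which 43 and 43 were among the 51 and 55, and without the third TBT library 33 genes were higher. Scaling to the ERCC spike-in RNA instead of to the genes left 13 higher and 7 lower genes, all among the 51 and 55. Of 45 called genes named by a rule on size and by list, 27 lost their call under that scaling, among them Lpl, Plin4, Sgk1, Slc7a5, Col6a1, Col6a2, Lox, Mcam, Itga5, Trim46, Trim66 and Cdsn of the higher ones and Tgm2, Dhrs3, Tnfaip3, C3, Nfkb2, Arl4c, Ptpn22, Rgs2, Gchfr, Tln2, Ndst4, Kcnj2, Npnt and Grem1 of the lower ones. That scaling moved all genes up nearly alike (median of all genes 0.0750), by less than the smallest called difference of 0.12. A change of direction could therefore not have been seen, and none was. Each of these higher genes had a larger log2 fold (0.22 for Itga5 to 0.74 for Trim46, with 0.14 and 0.66 before). Each of these lower ones had a smaller one in size (-0.14 for Grem1 and -1.06 for C3, with -0.21 and -1.13 before). With only the 12 libraries in the fit 34 genes were higher and 31 lower, and Rgs2, Gchfr, Ndst4, Slc7a5, Col6a1, Grem1 and Itga5 lost their call (adjusted p from 0.059 for Slc7a5 to 0.13 for Gchfr).

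**Figure D1:**
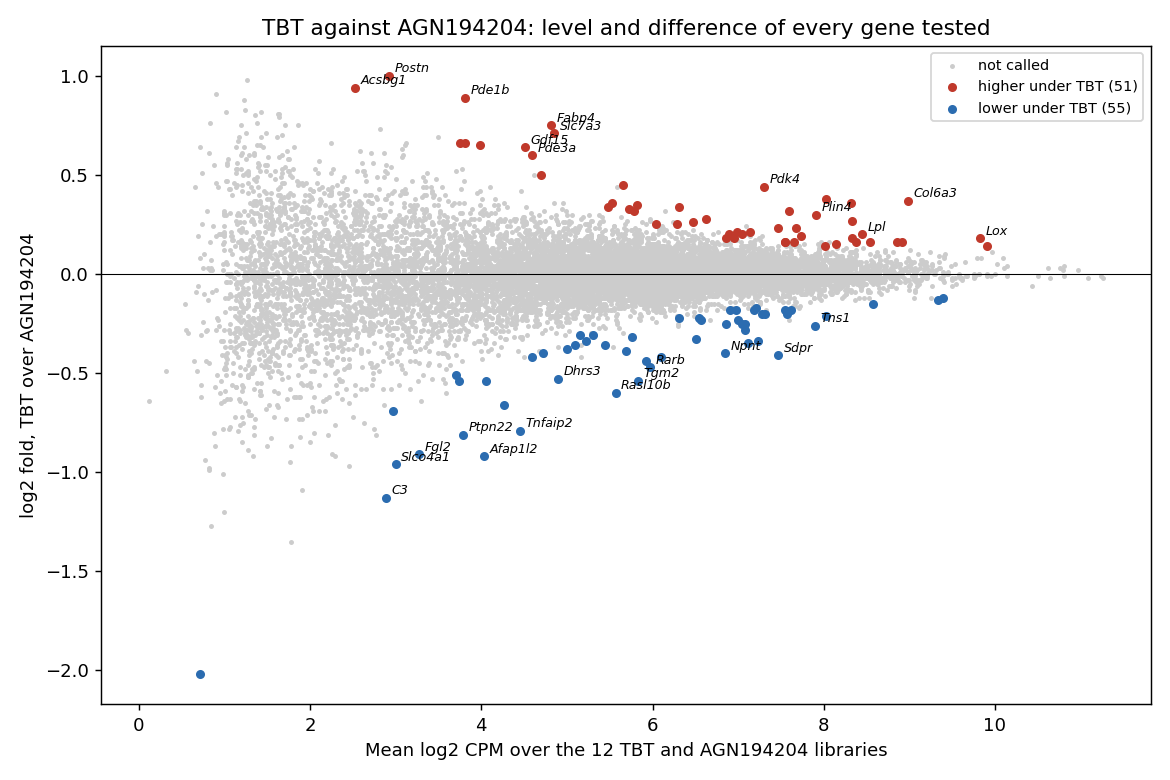
Each point is 1 of 12529 tested genes, with its mean log2 CPM over the 12 TBT and AGN194204 libraries on the x axis and the log2 fold of TBT over AGN194204 on the y axis. The 51 genes called higher (red) and 55 called lower (blue) lie mostly within 1 log2 unit of 0, with Postn at 1.00 at the top and C3 at -1.13 and the scarce transcript 4930461G14Rik at -2.02 (the unnamed lowest point) at the bottom.

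Promoter sequences are shown for 4 called genes of the retinoid, immune and collagen lists whose windows hold letters that were searched for: Rarb, Nfkb2, Tnfaip3 and Col6a1. Each is a RefSeq promoter window of GRCm38.p6, from 250 bases before to 50 bases after an annotated start, printed from 5′ to 3′ along the gene. The Rarb window (chr14:16575427-16575726, minus strand) and the Nfkb2 window (chr19:46305445-46305744, plus strand) lie inside the annotated span of their genes, those of Tnfaip3 (chr10:19015361-19015660, minus strand) and Col6a1 (chr10:76725995-76726294, minus strand) at its edge. Capitals mark the letters searched for. They are a pair of GTTCA cores (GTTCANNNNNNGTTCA, the retinoic acid response type with a 5-base gap between hexamers) in Rarb, the NF-κB letters (GGGA, any base, TTTCC) in Nfkb2, and the AP-1 letters TGAGTCA, read on the other strand as TGACTCA, in Tnfaip3 and Col6a1.
Rarb: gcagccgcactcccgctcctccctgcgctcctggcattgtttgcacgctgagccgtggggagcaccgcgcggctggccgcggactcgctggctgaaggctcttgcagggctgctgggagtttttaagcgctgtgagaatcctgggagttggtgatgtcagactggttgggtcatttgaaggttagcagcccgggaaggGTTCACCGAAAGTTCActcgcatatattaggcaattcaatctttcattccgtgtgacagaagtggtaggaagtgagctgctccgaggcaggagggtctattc
Nfkb2: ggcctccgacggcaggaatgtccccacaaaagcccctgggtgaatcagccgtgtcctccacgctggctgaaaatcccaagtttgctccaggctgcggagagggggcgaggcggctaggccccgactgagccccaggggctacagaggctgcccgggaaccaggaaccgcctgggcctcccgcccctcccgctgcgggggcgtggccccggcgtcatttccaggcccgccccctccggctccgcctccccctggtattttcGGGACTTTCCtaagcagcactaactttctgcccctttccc
Tnfaip3: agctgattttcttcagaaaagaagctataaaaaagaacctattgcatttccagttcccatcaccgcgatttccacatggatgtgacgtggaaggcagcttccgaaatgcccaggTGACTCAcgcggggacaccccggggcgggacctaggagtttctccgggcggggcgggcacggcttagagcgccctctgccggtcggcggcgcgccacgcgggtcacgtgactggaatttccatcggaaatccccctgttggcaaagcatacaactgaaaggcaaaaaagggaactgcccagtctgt
Col6a1: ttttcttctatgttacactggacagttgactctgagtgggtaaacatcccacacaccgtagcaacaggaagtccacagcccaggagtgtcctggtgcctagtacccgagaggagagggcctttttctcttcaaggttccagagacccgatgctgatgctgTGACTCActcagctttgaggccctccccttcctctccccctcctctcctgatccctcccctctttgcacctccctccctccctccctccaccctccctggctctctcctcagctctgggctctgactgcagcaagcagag

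Such windows were at hand for 9028 of the tested genes, for 36 of the 51 higher and 36 of the 55 lower ones, and both strands were searched. The GTTCA pair was found in 4 of the 9028 genes (0.0443%), and Rarb was the 1 called gene that held it. This pair was searched with GTTCA, whereas the other repeats used AGGTCA, which the marked Rarb letters do not hold. The Rarb match thus depends on the letters chosen. The NF-κB letters stood in 0.521% of all windowed genes, in none of the 36 higher genes and in 1 of the 36 lower genes, Nfkb2. TGAGTCA stood in 4.47% of all, in 5.56% of the higher genes (Col6a1 and F3) and in 11.1% of the lower genes (Fam107b, Fgl2, Nfkbie and Tnfaip3). The nuclear receptor hexamer AGGTCA stood in 14.4% of all, in 8.33% of the higher genes (Gdf15, Postn and Sgk1) and in 19.4% of the lower genes, Npnt, Tnfaip2 and Slco4a1 among them. The PPAR-type repeat AGGTCANAGGTCA, the LXR-type repeat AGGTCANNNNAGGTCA and the ATF4-type letters TGATGNAAT were found in no called gene's window, against 0.0332%, 0% and 0.51% of all. A match of letters describes the window and is not a measured binding site.

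Several genes of fat handling that PPARγ is known to drive were higher under TBT. Of 25 tested PPAR targets 5 were called higher (Fabp4, Pdk4, Plin4, Acot2 and Lpl) and none lower, and 18 of the 25 lay above 0, with a median log2 fold of 0.11 against -0.00 over all genes. For this and every later list, the shares over all 12529 genes tested were 0.407% called higher and 0.439% called lower. The lists were chosen with earlier results of these data known, so a share above these describes the list and is no independent test. Of all genes, 6148 lay above 0 and 6381 below. Spike-in scaling moved the median of all genes from -0.0019 to 0.0750, so counts above 0 tend to rise under it in any list. Of the 34 tested enzymes of H3K4 and H3K27 methylation, for instance, 17 lay above 0 before and 31 under that scaling. Fabp4, the fatty acid carrier of fat cells (chromosome 3, 10204342 to 10208616), read 30.4, 36.8 and 42.6 CPM (lowest, median and highest of 6 libraries) under TBT and 17.2, 21.1 and 25.4 CPM under AGN194204. Every TBT library was above every AGN194204 library, the log2 fold was 0.75 ± 0.11 (SE) and the adjusted p was 4.6e-05 (edgeR). Under DMSO the gene was nearly silent at a median of 1.96 CPM, and rosiglitazone gave a median of 17.6 CPM, within the range of AGN194204.

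Pdk4, the kinase that turns glucose carbon away from the mitochondrion (chromosome 6, 5483351 to 5496278), read 175, 183 and 189 CPM under TBT and 125, 129 and 156 CPM under AGN194204. Its groups were clear of each other, and with an adjusted p of 2.4e-07 (edgeR) the log2 fold was 0.44 ± 0.05. The DMSO median was 51.1 CPM and the rosiglitazone median 87.4 CPM, so both compounds lay above both. Lpl, the lipase that frees fatty acids from lipoproteins, read 362, 370 and 397 CPM under TBT and 296, 327 and 352 CPM under AGN194204. That is a small difference with no overlap, 0.20 ± 0.03 on the log2 scale (adjusted p = 8.6e-04, edgeR). Plin4, a coat protein of lipid droplets, read 235, 271 and 281 CPM under TBT and 184, 218 and 263 CPM under AGN194204, and these ranges overlapped (log2 fold 0.30 ± 0.06, adjusted p = 0.0048, edgeR). Acot2, a mitochondrial acyl-CoA thioesterase, had a log2 fold of 0.36 ± 0.07 with overlapping groups (adjusted p = 0.0078, edgeR). Under spike-in scaling the list kept 3 of its 5 calls. Lpl (log2 fold 0.27, adjusted p = 0.16, edgeR) and Plin4 (log2 fold 0.38, adjusted p = 0.25, edgeR) lost theirs, with folds moved up as those of all genes were.

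Other genes of fat cells were not called apart. Car3, carbonic anhydrase of adipocytes, had medians of 56.9 CPM under TBT and 55.2 CPM under AGN194204 against 2.22 CPM under DMSO, and the interval of the difference was -0.06 to 0.30 on the log2 scale (95% confidence). Angptl4, an inhibitor of lipoprotein lipase, had medians of 335 and 303 CPM against 143 CPM under DMSO (interval 0.03 to 0.18, adjusted p = 0.21, edgeR). Plin2, another droplet coat protein, had an interval of -0.00 to 0.24. Cebpa, a transcription factor of fat cell formation, read 24.6 to 28.3 CPM under TBT and 17.5 to 23.9 CPM under AGN194204. The groups did not overlap, yet the difference of 0.31 ± 0.10 was not called (adjusted p = 0.19, edgeR). Pparg itself lay the other way, with medians of 59.6 CPM under TBT and 69.5 CPM under AGN194204 (log2 fold -0.18 ± 0.06, adjusted p = 0.20, edgeR). None of the 23 tested adipogenic regulators, 22 genes of fatty acid and triglyceride synthesis or 26 genes of cholesterol synthesis was called, where 8, 4 and 0 genes had an unadjusted p under 0.05 and the DESeq2 Wald test called none either.

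**Figure D2:**
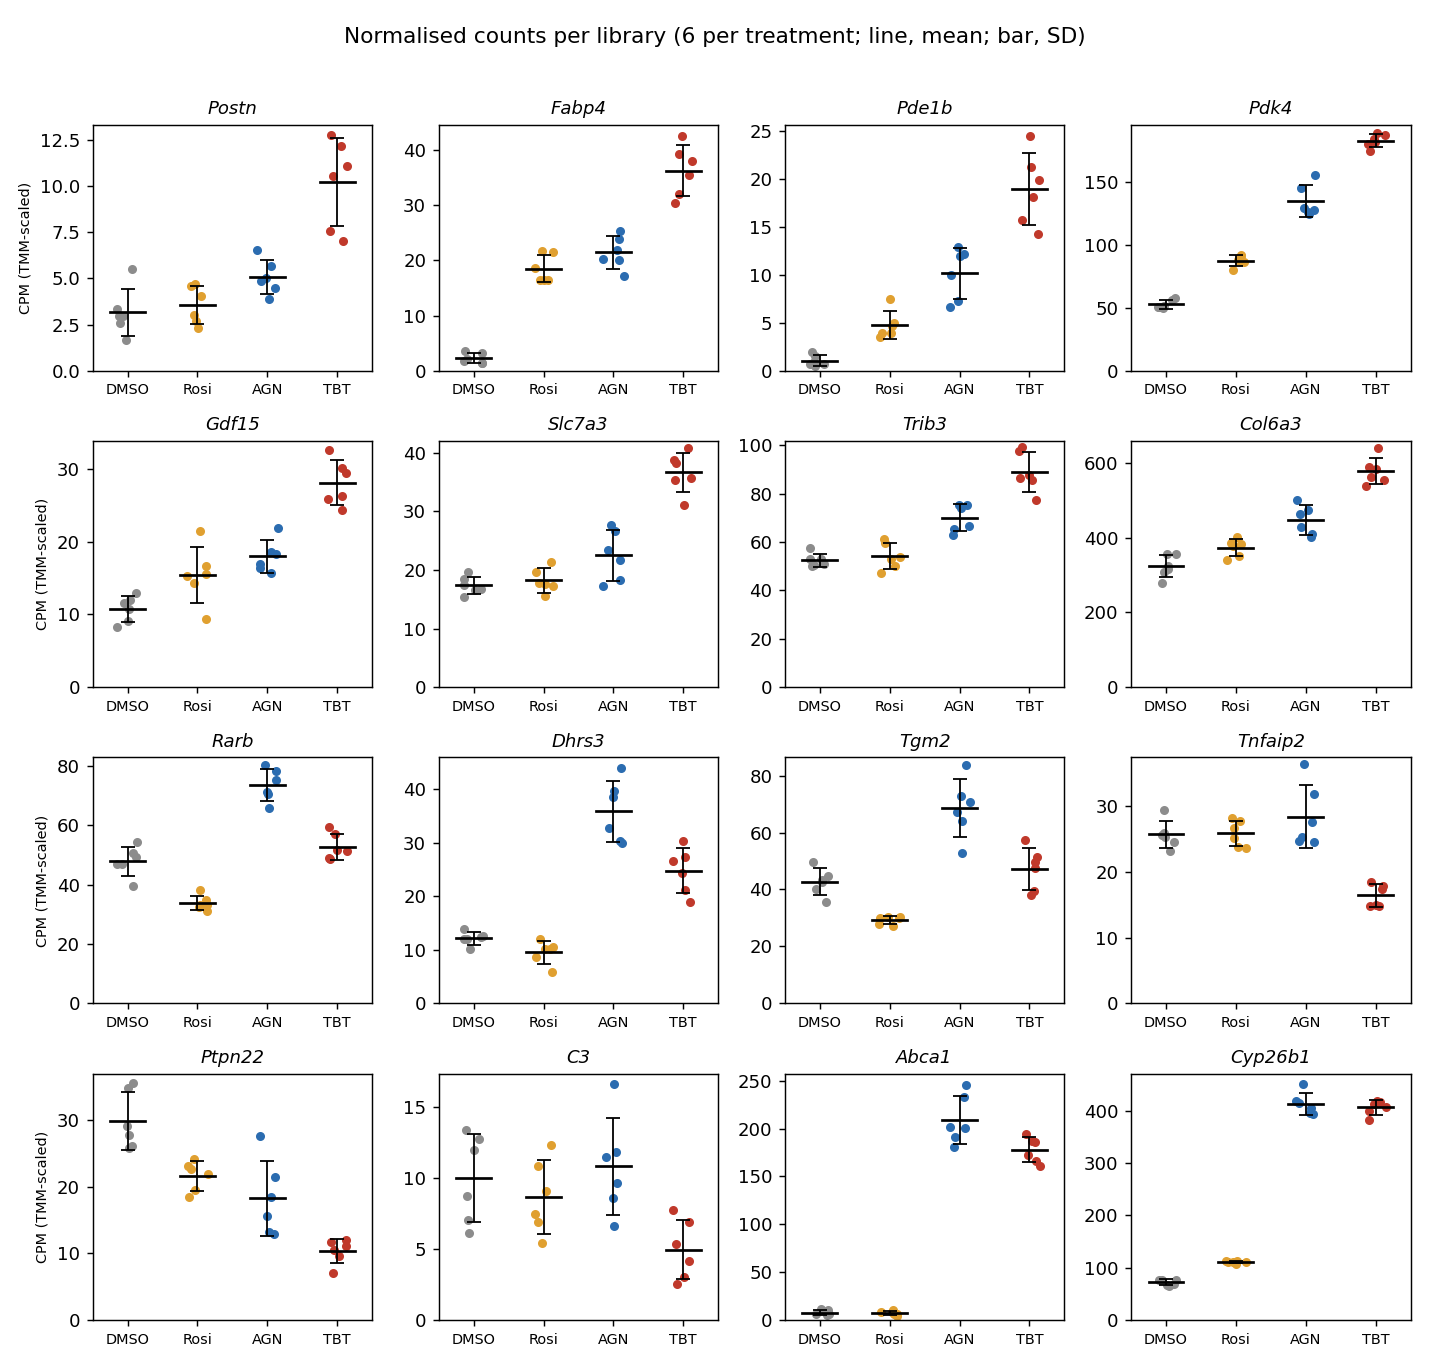
Each panel shows 1 gene, with each point 1 library, the level in TMM-scaled CPM on the y axis from 0, the 6 libraries of each treatment side by side (DMSO, rosiglitazone, AGN194204, TBT), the line their mean and the bar 1 SD. Fabp4 and Pdk4 stood higher under TBT than under AGN194204, Rarb, Dhrs3 and Tgm2 stood lower, and Cyp26b1 and Abca1 were not called different although both were far above DMSO.

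A few genes tied to retinoic acid were lower under TBT. Among 15 tested genes of RAR signalling and retinoid metabolism, 3 were called lower (Rarb, Dhrs3 and Tgm2) and none higher, while the list median was -0.03 and 9 of the 15 lay below 0 (0.05 and 7 of 15 under spike-in scaling, where Rarb alone stayed called). Rarb encodes retinoic acid receptor β and is a textbook RAR target (chromosome 14, 16430839 to 17082331). Its level was 48.7, 51.4 and 59.2 CPM under TBT and 65.9, 73.2 and 80.4 CPM under AGN194204. All AGN194204 libraries exceeded all TBT libraries, and the log2 fold of TBT over AGN194204 was -0.47 ± 0.07 (adjusted p = 2.8e-05, edgeR). Against DMSO (median 48.1 CPM), AGN194204 gave a log2 fold of 0.62 (adjusted p = 3.4e-09), TBT one of 0.14 (adjusted p = 0.12) and rosiglitazone one of -0.50 (adjusted p = 5.0e-05).

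Tgm2, tissue transglutaminase and another gene long known to answer to retinoic acid, showed the same arrangement of medians. It read 38.0, 48.7 and 57.2 CPM under TBT and 52.7, 69.0 and 83.6 CPM under AGN194204, with some overlap (log2 fold -0.54 ± 0.09, adjusted p = 4.1e-04, edgeR). Over DMSO its log2 fold was 0.68 for AGN194204 (adjusted p = 2.1e-07), 0.14 for TBT (adjusted p = 0.28) and -0.54 for rosiglitazone (adjusted p = 0.0014). Dhrs3, a retinaldehyde reductase that lowers retinoic acid supply, read 18.9, 25.5 and 30.4 CPM under TBT and 29.9, 35.6 and 44.0 CPM under AGN194204. Its ranges touched only at their ends, and the log2 fold was -0.53 ± 0.11 (adjusted p = 0.0083, edgeR). Both compounds were above the DMSO median of 12.2 CPM for this gene. Cyp26b1, the enzyme that clears retinoic acid, was not called: its medians were 410.7 CPM under TBT and 410.8 CPM under AGN194204 against 72.2 CPM under DMSO, with an interval of -0.10 to 0.05. Rxra, the gene of RXRα, was not called either (interval -0.06 to 0.11).

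Of 12 tested LXR targets 1 was called lower under TBT and none higher. That gene was Arl4c, a small GTPase, at 110, 123 and 129 CPM under TBT and 139, 144 and 153 CPM under AGN194204 (log2 fold -0.25 ± 0.05, adjusted p = 0.0025, edgeR), and its groups did not overlap. AGN194204 was not called above DMSO for Arl4c (DMSO median 144.5 CPM, log2 fold 0.03, adjusted p = 0.65, edgeR). TBT lay below DMSO for it (-0.21, adjusted p = 5.4e-04, edgeR). In all, 10 of the 12 genes lay below 0, with a median of -0.07, which became 6 of 12 and 0.00 under spike-in scaling. The cholesterol exporter Abca1 had medians of 179 CPM under TBT and 201 CPM under AGN194204 against 6.61 CPM under DMSO, a difference of -0.23 ± 0.07 that was not called (adjusted p = 0.12, edgeR), although it was with no filter on low counts (adjusted p = 0.0094) and with the replicate number as a block (adjusted p = 0.044). Abcg1, its partner in export, gave -0.36 ± 0.10 (adjusted p = 0.068, or 0.030 without the second TBT library) and Apoe, a lipoprotein component, gave -0.91 ± 0.25 (adjusted p = 0.076).

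**Figure D3:**
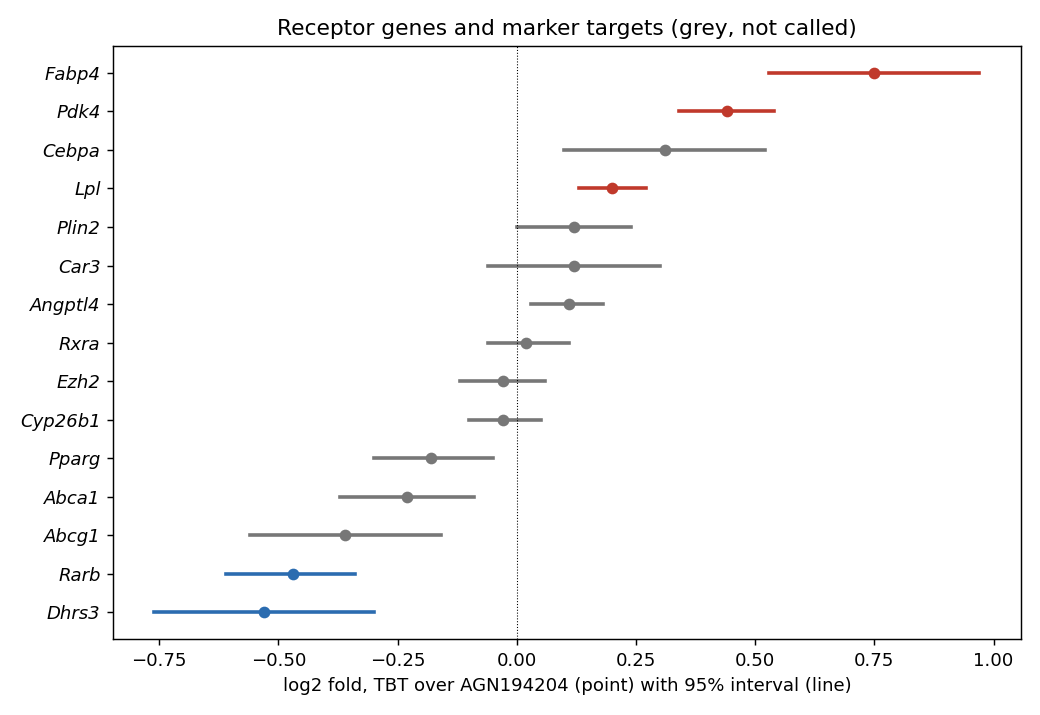
The x axis is the log2 fold of TBT over AGN194204 for 15 receptor and marker genes, the point the estimate and the line its 95% interval, with grey for genes not called. Fabp4, Pdk4 and Lpl lie right of 0, Rarb and Dhrs3 left of 0, and the intervals of Rxra, Ezh2, Cyp26b1 and Car3 include 0. The intervals are not adjusted for the number of genes tested. Those of Abca1, Abcg1, Pparg, Cebpa and Angptl4 exclude 0 although these genes were not called.

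Genes of the amino acid stress response, which the transcription factor ATF4 drives when amino acids run short or the endoplasmic reticulum is strained, were in part higher under TBT. Of 43 tested genes 6 were called higher and none lower, 41 lay above 0 and the median was 0.10 (42 above 0 and 0.17 under spike-in scaling, with 2 calls kept). Gdf15, a secreted stress cytokine (chromosome 8, 70629393 to 70632470), read 24.3, 27.9 and 32.6 CPM under TBT and 15.6, 17.6 and 21.9 CPM under AGN194204. The groups were separate, and the log2 fold was 0.64 ± 0.12 (adjusted p = 0.0024, edgeR). Trib3, a pseudokinase induced by ATF4, read 77.4, 86.9 and 99.1 CPM under TBT and 63.0, 70.4 and 75.4 CPM under AGN194204 (log2 fold 0.34 ± 0.06, adjusted p = 0.0024, edgeR). Here too every TBT library was above every AGN194204 library. Both compounds were called above DMSO for these genes. Gdf15 gave 1.39 for TBT and 0.75 for AGN194204 on the log2 scale, and Trib3 gave 0.76 and 0.42.

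The other 4 called members had differences of 0.15 to 0.19 on the log2 scale. They were Pck2, mitochondrial PEP carboxykinase (0.19 ± 0.04), the amino acid transporter Slc7a5 (0.16 ± 0.03), asparagine synthetase Asns (0.16 ± 0.04) and the proline synthesis enzyme Aldh18a1 (0.15 ± 0.04). AGN194204 was called above DMSO for Pck2 (0.28) and Slc7a5 (0.10), but not for Asns (0.05) or Aldh18a1 (0.05). The gene of ATF4 itself was not called, with a log2 fold of 0.04 ± 0.04, nor was Ddit3, which encodes CHOP, at 0.07 ± 0.06. Outside the list, the cationic amino acid transporter Slc7a3 (chromosome X, 101079146 to 101090452) read 31.1, 37.0 and 40.8 CPM under TBT and 17.2, 22.6 and 27.7 CPM under AGN194204. It was thus clear of AGN194204 in every library, and the log2 fold was 0.71 ± 0.10 (adjusted p = 2.6e-05, edgeR). Over DMSO it gave 1.08 for TBT and 0.37 for AGN194204 (adjusted p = 0.012 for the latter, edgeR). The folate enzyme Aldh1l2 was also higher (0.27 ± 0.04). Counts for the list depended on the third TBT library, without which 3 genes were called, and on the second, without which 9 were. None of the 21 chaperones of the endoplasmic reticulum was called (5 at an unadjusted p under 0.05, none by DESeq2), nor any of the 33 tested genes of metal and oxidative stress, where 6 had an unadjusted p under 0.05 and DESeq2 called 1.

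Several collagens and other matrix genes were higher under TBT. Of 19 tested collagens 6 were called higher and none lower, 17 lay above 0 under either scaling, and the median was 0.09 (0.16 under spike-in scaling, with 1 call kept). The 3 chains of collagen VI, which builds beaded filaments around cells, were all among them. Col6a3 (chromosome 1, 90766860 to 90844001) read 539, 574 and 641 CPM under TBT and 403, 447 and 502 CPM under AGN194204, without overlap (log2 fold 0.37 ± 0.05, adjusted p = 2.5e-05, edgeR). Col6a2 gave 0.36 ± 0.06 and Col6a1 gave 0.16 ± 0.04, both with overlapping groups. Col6a1 was not called without the fifth (adjusted p = 0.065) or the sixth (adjusted p = 0.095) AGN194204 library. The others were Col12a1 (0.32 ± 0.08), Col18a1 (0.25 ± 0.06) and Col4a2 (0.14 ± 0.03), whereas the main fibrillar chains Col1a1 (0.02 ± 0.04) and Col1a2 (0.03 ± 0.04) were not called. AGN194204 was itself called above DMSO for Col6a3 (0.47), Col6a2 (0.86), Col6a1 (0.51), Col12a1 (0.41) and Col4a2 (0.19), but not for Col18a1 (0.07). TBT gave 0.84, 1.22, 0.67, 0.74, 0.33 and 0.32 over DMSO for the same genes in that order. The count of called collagens was least stable to the sixth AGN194204 library, without which 2 were called, and to the third and the fifth, without each of which 3 were.

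In the authors' deposited table of H3K4me3 peaks that differ between TBT and DMSO, 1 peak reached a searched promoter window of a called gene, which is 1 of 36 higher genes (2.78%) and 0 of 36 lower ones against 0.122% of the 9028 windowed genes. It was that of Col6a1 (chr10:76715400-76737199), with a log2 fold of 0.53 for TBT over DMSO and an FDR of 0.0314 in the authors' deposited table. H3K4me3 marks the starts of active genes. No AGN194204 chromatin sample entered that table, so it says nothing of the comparison made here.

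Postn, the matrix protein periostin (chromosome 3, 54359267 to 54391041), had the steepest called difference in the higher direction. It read 7.03, 10.8 and 12.8 CPM under TBT and 3.90, 4.96 and 6.53 CPM under AGN194204, with every TBT library above every AGN194204 library (log2 fold 1.00 ± 0.20, adjusted p = 0.0050, edgeR). Lox, the enzyme that crosslinks collagen, was higher by 0.18 ± 0.04. Among 17 tested stromal surface markers, Mcam (0.35 ± 0.07) and Itga5 (0.14 ± 0.04) were called higher. Itga5 lost its call in 9 of the 12 fits that left out 1 library (adjusted p up to 0.11). Over DMSO Mcam gave -0.47 for AGN194204 (adjusted p = 2.6e-06) and -0.13 for TBT (adjusted p = 0.17).

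The phosphodiesterase genes Pde1b and Pde3a, whose enzymes break down cyclic nucleotides, were higher under TBT. Pde1b, a calcium-dependent phosphodiesterase (chromosome 15, 103503034 to 103530056), read 14.3, 18.9 and 24.4 CPM under TBT and 6.63, 10.96 and 12.9 CPM under AGN194204 against a DMSO median of 0.810 CPM. The log2 fold of TBT over AGN194204 was 0.89 ± 0.17 (adjusted p = 0.0024, edgeR), with no overlap. Pde3a read 23.4, 29.2 and 35.7 CPM under TBT and 15.7, 19.98 and 22.3 CPM under AGN194204 (0.60 ± 0.10, adjusted p = 8.8e-04, edgeR). Over DMSO it gave 0.58 for TBT (adjusted p = 3.4e-05) and -0.02 for AGN194204 (adjusted p = 0.91). These genes were not from a list, but from the rule that names the largest separated differences. The same rule named Trim46 (0.66 ± 0.15), Cdsn (0.66 ± 0.15), Trim66 (0.65 ± 0.16) and Psd3 (0.45 ± 0.08). Leaving out 1 library ended the call of Trim46 in 3, of Cdsn in 2 and of Trim66 in 6 of 12 fits, with adjusted p up to 0.071, 0.067 and 0.12.

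Of the largest separated differences in the lower direction, those of Tnfaip2 and Ptpn22 belong to genes known from immune cells and inflammation. Tnfaip2, a gene induced by tumour necrosis factor (chromosome 12, 111442450 to 111455018), read 14.8, 16.2 and 18.4 CPM under TBT and 24.5, 26.4 and 36.3 CPM under AGN194204. No library of one group reached the other, and the log2 fold was -0.79 ± 0.10 (adjusted p = 6.9e-06, edgeR). Against DMSO (median 25.4 CPM) TBT gave -0.64 (adjusted p = 5.8e-06) and AGN194204 gave 0.15 (adjusted p = 0.28). Ptpn22, a phosphatase known for restraining lymphocyte receptors (chromosome 3, 103856575 to 103912252), read 7.05, 10.8 and 12.0 CPM under TBT and 13.0, 17.02 and 27.6 CPM under AGN194204 (-0.81 ± 0.16, adjusted p = 0.0027, edgeR). Its DMSO median of 28.4 CPM lay above all TBT and all AGN194204 libraries.

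Of 20 tested inflammatory genes, C3 and Tnfaip3 were called lower and none higher, 18 lay below 0 and the median was -0.17 (15 below 0 and -0.09 under spike-in scaling, with no call kept). C3, the central complement component, read 2.51, 4.73 and 7.72 CPM under TBT and 6.63, 10.6 and 16.6 CPM under AGN194204, with overlap, and its difference of -1.13 ± 0.25 (adjusted p = 0.010, edgeR) was not called without the first AGN194204 library (adjusted p = 0.059). Tnfaip3, which encodes the NF-κB brake A20, gave -0.33 ± 0.06 with overlap (adjusted p = 0.0019, edgeR), where both compounds lay above DMSO, by 0.21 for TBT and 0.54 for AGN194204. Among 20 complement and innate genes 3 were called lower and none higher, C3 and Nfkb2, an NF-κB subunit (-0.23 ± 0.05), among them. Nfkb2 read 112, 118 and 126 CPM under TBT and 128, 139 and 152 CPM under AGN194204, so its groups were apart, and its DMSO median of 142 CPM was near that of AGN194204. Nfkbie, an inhibitor of NF-κB that is in no list and was picked after its value was seen, was lower as well (-0.54 ± 0.14). In 12 mast cell and basophil markers, 7 of them without a count in the 12 libraries, the summed level was 3.44 to 6.58 CPM under TBT and 5.69 to 10.0 CPM under AGN194204. The 2 that could be tested, Mcpt8 (-1.27) and Hdc (-0.33), were not called, and the part of such cells in the lower immune genes was not tested.

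Interferon and antigen presentation genes had no called member. Of 35 type I interferon-induced genes 31 lay below 0 with a median of -0.07, but under spike-in scaling 16 of 35 did and the median was 0.00. None was called, 1 had an unadjusted p under 0.05, and DESeq2 called none. For 18 genes of MHC class I presentation, 16 lay below 0 (11 under spike-in scaling), none was called by either tool and 3 had an unadjusted p under 0.05. Mitosis genes (28 of 35 below 0), DNA replication genes (22 of 35) and nuclear genes of the respiratory chain (44 of 54) had no called member, with 6, 1 and 4 at an unadjusted p under 0.05 and none called by DESeq2. Their medians of -0.06, -0.02 and -0.03 were smaller than the shift that spike-in scaling gave to all genes alike (median of all genes 0.0750), under which 8, 5 and 13 genes lay below 0, so no direction is given for these 3 lists. Without the second TBT library, 2 mitosis genes were called lower.

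**Figure D4:**
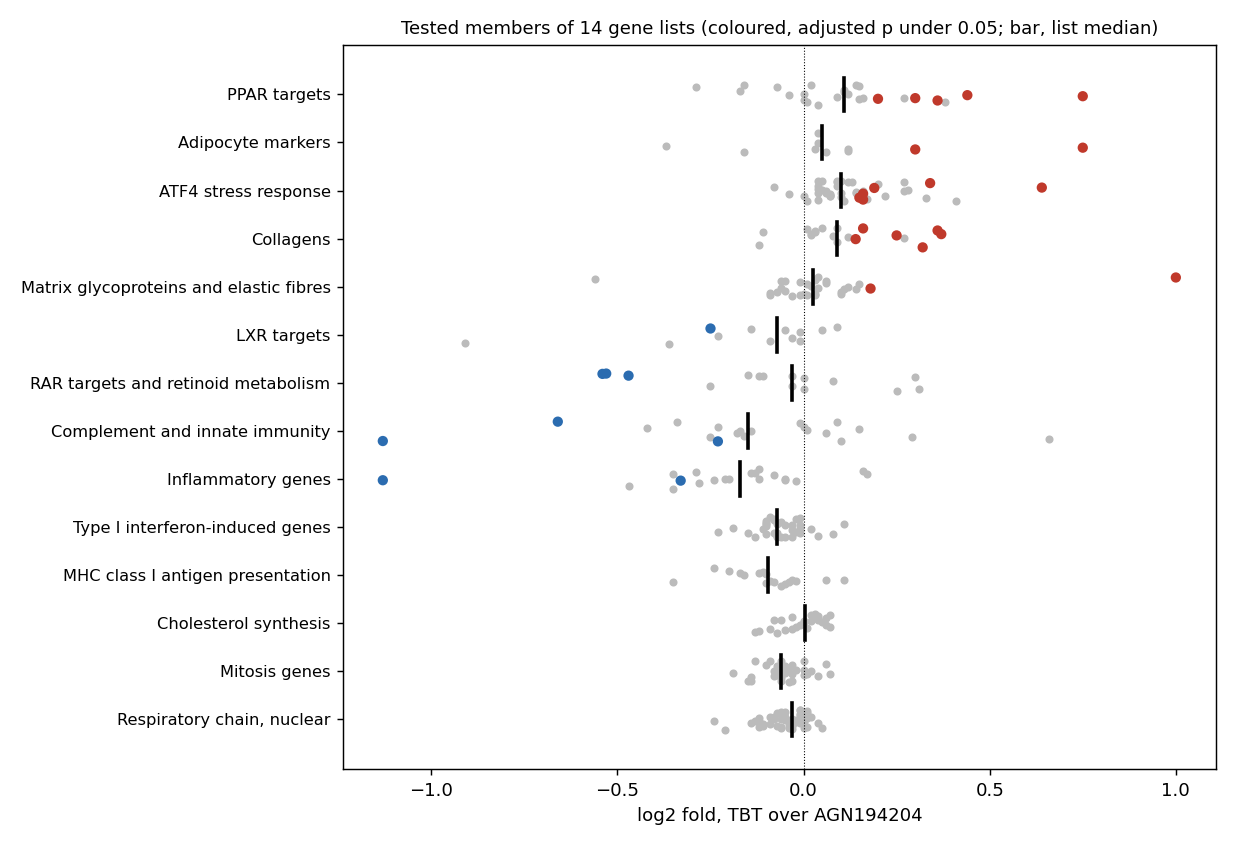
Each dot is a tested gene of 1 of 14 lists, its x position the log2 fold of TBT over AGN194204, coloured where it was called (red higher, blue lower), with the bar at the list median. PPAR targets, ATF4 genes and collagens have red dots only, with medians of 0.11, 0.10 and 0.09, and the retinoid, complement and inflammatory lists have blue dots only, with medians of -0.03, -0.15 and -0.17.

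The rule on size also named Afap1l2, Slco4a1, Sdpr and Npnt among the lower genes. Afap1l2, an actin-associated adaptor (chromosome 19, 56912354 to 57028589), read 6.78, 11.5 and 17.6 CPM under TBT and 18.02, 22.4 and 26.6 CPM under AGN194204 (-0.92 ± 0.16, adjusted p = 9.9e-04, edgeR). Its DMSO median of 16.9 CPM lay between the medians of the compounds. Slco4a1, an organic anion and thyroid hormone transporter, read 4.43, 5.44 and 6.72 CPM under TBT and 6.84, 11.1 and 13.5 CPM under AGN194204 (-0.96 ± 0.18, adjusted p = 0.0019, edgeR), separate but close at the edge. Sdpr, a caveolae protein also known as cavin-2, had one of the smallest adjusted p-values (2.4e-07, edgeR): it read 145, 154 and 162 CPM under TBT and 180.1, 210 and 219 CPM under AGN194204, a log2 fold of -0.41 ± 0.04 with no overlap. TBT lay below DMSO for it (-0.41, adjusted p = 1.4e-09), while AGN194204 was not called against DMSO (-0.00, adjusted p = 0.97). Npnt, a matrix ligand of integrins, was alike in size (-0.40 ± 0.05, adjusted p = 1.9e-06, edgeR), and TBT again lay below DMSO (-0.43, adjusted p = 4.6e-09) where AGN194204 gave -0.03 (adjusted p = 0.69).

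For the lower genes Rasl10b, Fgl2 and Kcnj2, AGN194204 was called above DMSO and TBT was not. Rasl10b, a Ras-like GTPase, read 32.1, 37.7 and 48.2 CPM under TBT and 50.7, 59.0 and 61.1 CPM under AGN194204 (-0.60 ± 0.08, adjusted p = 2.0e-05, edgeR). Over DMSO (median 36.0 CPM) it gave 0.64 for AGN194204 (adjusted p = 1.0e-07) and 0.04 for TBT (adjusted p = 0.77). Fgl2, a fibrinogen-like secreted protein, gave -0.91 ± 0.18 (adjusted p = 0.0038, edgeR) between the compounds, 1.02 for AGN194204 over DMSO (adjusted p = 3.3e-05) and 0.11 for TBT (adjusted p = 0.74). Kcnj2, an inward rectifier potassium channel, gave -0.42 ± 0.07, with 0.31 (adjusted p = 4.1e-04) and -0.10 (adjusted p = 0.30) over DMSO. Grem1, an antagonist of bone morphogenetic proteins, was lower than DMSO under both compounds, by -0.50 for TBT and -0.29 for AGN194204, and differed between them by -0.21 ± 0.05 (adjusted p = 0.0085, edgeR). The lowest value of all, -2.02 ± 0.50 for 4930461G14Rik, rests on medians of 0.495 and 2.66 CPM with overlapping groups. Over DMSO this transcript gave -2.23 for TBT (adjusted p = 4.2e-04, edgeR) and -0.21 for AGN194204 (adjusted p = 0.73, edgeR).

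The rosiglitazone libraries offered a reference for PPARγ activation that shares no library with the comparison of TBT and AGN194204, apart from the variance estimate of the common fit. Of 12529 genes, rosiglitazone raised 77 over DMSO (0.615%) and lowered 53 (0.423%). Among the 77 raised genes, 14 were called higher under TBT than under AGN194204 and 0 lower, a share of 18.2% against 0.407% over all genes. Genes with many counts and a small spread are easier to call in both comparisons, and the shares over all genes are not matched for that. Those 14 are 27.5% of the 51 genes higher under TBT. Among the 53 lowered genes, 12 were called lower under TBT and 0 higher, a share of 22.6% against 0.439%, and these 12 are 21.8% of the 55. Of the 77 raised genes 63 lay above 0 with a median of 0.11, and of the 53 lowered genes 8 did, with a median of -0.14. Under spike-in scaling 72 of the 77 lay above 0 with a median of 0.19, and 19 of the 53 with a median of -0.06. Both sets moved up with all genes there (median of all genes 0.0750), so the rise to 72 adds no weight. Spike-in scaling of both comparisons left 21 raised and 12 lowered genes, of which 4 and 2 were called in the same directions, and without the first TBT library 6 of 48 lowered genes were called lower. Without the third TBT library 9 of 75 raised genes were called higher, and without the fourth AGN194204 library 1 of 63 lowered genes was.

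The 14 shared higher genes joined fat-handling genes with others. Besides Fabp4, Pdk4, Plin4 and Lpl they held Acsbg1, an acyl-CoA synthetase (0.94 ± 0.22 between the compounds and 1.04 for rosiglitazone over DMSO), Pde1b, Col6a2, Col6a3, Sgk1, the tyrosine catabolism enzyme Fah, the mTOR inhibitor Deptor, the phosphatase Dusp5 and the sulfatase Sulf2. The 12 shared lower genes included Rarb, Tgm2, Slco4a1, Clu, a secreted chaperone, Loxl4, Tln2, Tns1, Gas7, Pitpnc1, Zfpm1 and Ghr, the growth hormone receptor. Several rosiglitazone-raised genes were not called between the compounds, Car3, Cyp26b1 and Angptl4 among them. The raised gene lying furthest to the other side was Gsto2, at -0.39 ± 0.21 (adjusted p = 0.54, edgeR).

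**Figure D5:**
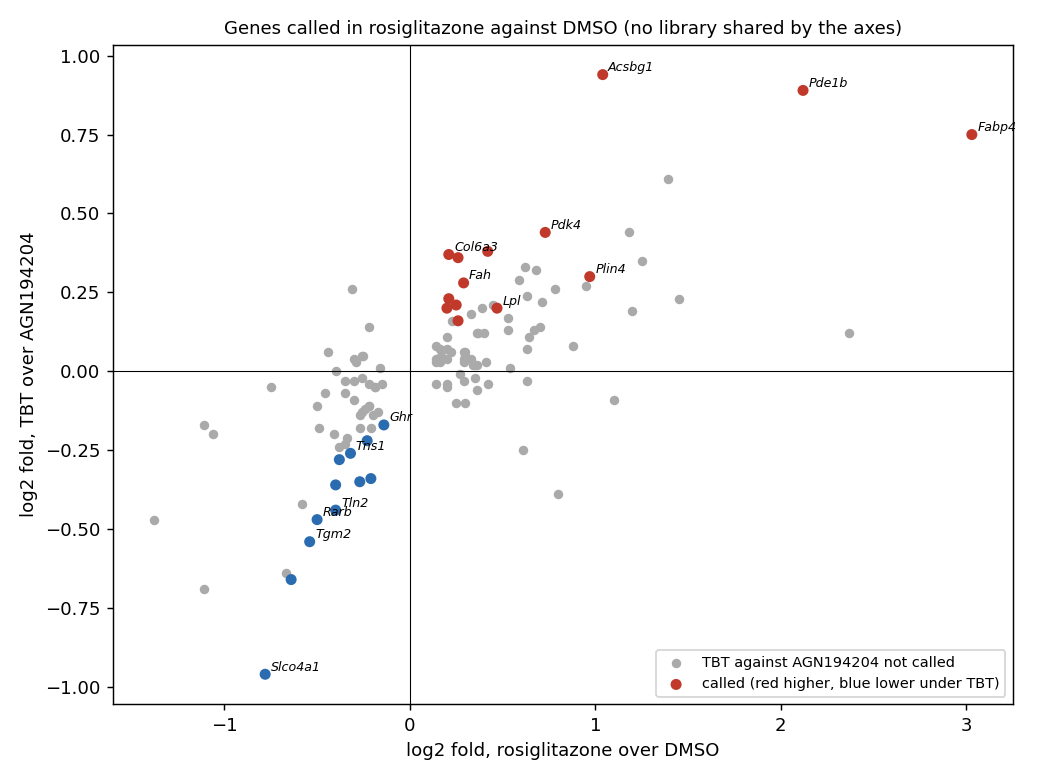
The x axis is the log2 fold of rosiglitazone over DMSO and the y axis that of TBT over AGN194204, for the 77 genes raised and 53 lowered by rosiglitazone. The 14 genes called higher (red) all lie at the upper right and the 12 called lower (blue) at the lower left, and grey points were not called on the y axis.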

How the data were processed

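For the 24 RNA libraries the authors deposited unnormalised read counts by gene symbol, as 45317 gene entries, 92 ERCC spike-in entries and 5 summary entries for unassigned reads. The 5 summary entries stayed outside library sizes and tests; in the 12 TBT and AGN194204 libraries reads outside genes made up 20.9% to 24.3% and ambiguous reads 1.85% to 2.02%. Per the labels' protocols, RNA had integrity numbers of 8.0 to 8.6 and was sequenced as 75-nt reads with up to 12 libraries a run. The labels do not tie a library to a run, so runs were not compared. STAR, SAMtools, FastQC and DESeq2 are named in the submitters' processing notes, with GRCm38 and mm10 as builds. Counting software and strand setting are not stated there, so overlapping genes and near-identical copies are uncertain, and some symbols in the table have turned into dates. H3K4me3 peaks that differ between TBT and DMSO came as a second table deposited by the authors, with their log2 folds, p-values and FDR.

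Counts were scaled by TMM, filtered with filterByExpr (12529 genes kept) and tested with edgeR 4.0.16 (quasi-likelihood) in R 4.3.3, in 1 fit over all 24 libraries with the 4 treatments as groups, and called at a Benjamini-Hochberg adjusted p under 0.05. CPM are counts per 1000000 of the TMM-scaled library, and log2 folds carry the standard error of the fit. The dispersion common to all genes corresponded to a coefficient of variation of 5.24%. No label says what the replicate numbers mark, and the main fit left them out. The correlation of same-numbered TBT and AGN194204 libraries' deviations ran from -0.038 to 0.123 and was over 0.1 in 2 of 6 pairs. The second library was nonetheless the deepest in each of the 4 treatments. It also had the lowest mitochondrial share in each (0.267% under TBT to 0.316% under rosiglitazone). Whether same-numbered libraries share an origin was not tested. Replicates were never as alike as sampling noise alone would make them (chi-square per degree of freedom at least 1.45 over 30 pairs). The genes named were the 14 largest separated differences in each direction averaging a log2 CPM of 1 or more and a named symbol, for each list holding a called gene its first 3 members by adjusted p, and a fixed set of receptor and marker genes; other called genes are named by list, motif or overlap with rosiglitazone, after their values were seen. The 12 libraries and the 41 gene lists (910 symbols, 740 tested) were chosen with earlier results of these data known. The script was tested on simulated data. Alternatives were DESeq2 1.42.0, its size factors, ERCC scaling, no filter, only the 12 libraries, a replicate block, a fold threshold and leaving out each library. Promoter windows, coordinates and their build are those of RefSeq (GRCm38.p6), matched by symbol. Some genes that the naming rule selects are not reported here.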

Additional observations from a re-analysis of the deposited data

Results flagged for a closer look

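Single libraries stood far from the other 5 of their group in 7 of 144 groups examined, and chance alone gives about 1 in 20. Psd3 read 37.57 CPM in the fourth AGN194204 library, against 43.53 to 46.17 CPM in the others. Rasl10b read 48.18 CPM in the third TBT library, above the 32.14 to 38.1 CPM of the rest, and 50.65 CPM in the fifth AGN194204 library, below 57.6 to 61.07 CPM. In the second TBT library, Rgs2 was low at 7.706 CPM (others 13.19 to 16.4), Npnt was high at 112.8 CPM (others 94.93 to 100.1) and the share of ambiguous reads was low at 1.847% (others 1.954% to 2.016%). Plin4 read 235.2 CPM in the sixth TBT library, against 265.5 to 281.3 CPM. The direction of Psd3, Rasl10b, Npnt and Plin4 and their calls held when any 1 of the 12 libraries was left out, whereas Rgs2 lost its call in 6 of the 12 such fits, without TBT library 2, 4 or 6 or AGN194204 library 1, 4 or 5 (adjusted p up to 0.087, edgeR).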

How the results depend on the processing

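No called gene among those named reversed its direction under any alternative, and DESeq2 (60 higher and 64 lower genes) and its size factors (52 and 55) kept every one of the 45 named calls. For spike-in scaling the kept directions were fixed in advance, since it moved all genes by less than the smallest called difference (0.12). Testing against a fold of 1.2 left 2 higher genes and 1 lower one. Scaling to ERCC spike-ins put the median of all genes at 0.0750 on the log2 scale: 13 genes were then called higher and 7 lower, 4 of 21 rosiglitazone-raised genes higher and 2 of 12 rosiglitazone-lowered genes lower, and 27 of the 45 named calls were lost with their direction kept; the cause was not tested. With only the 12 libraries in the fit, 34 genes were higher and 31 lower, 33 and 29 of them among the 51 and 55, and 7 of the 45 named calls were lost. With no filter, 2 rosiglitazone-lowered genes were called higher under TBT. The replicate block, whose numbers share no stated origin, gave 86 higher and 83 lower genes that included all 51 and 55, with 22 rosiglitazone-raised genes called higher and 1 rosiglitazone-lowered gene called higher; 2 of 6 TBT libraries correlated best with their own number. Leaving out 1 library at a time gave 33 (without the third TBT library) to 66 (without the second) higher genes and 43 to 66 lower ones, 9 to 17 rosiglitazone-raised genes higher and 0 lower, and 6 (without the first TBT library) to 16 rosiglitazone-lowered genes lower, with 0 to 1 called higher. Leaving out TBT libraries 1 and 2 together, chosen after seeing the data, gave 66 higher and 64 lower genes. Scarce genes such as Postn, C3 and 4930461G14Rik rest on few counts at this depth, and a difference that was not called may be one this depth could not show.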

Other observations

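Lists that the text has not described added few calls. Of 25 tested TGF-β and BMP genes 1 was called higher and 1, Grem1, lower. Among 13 glucocorticoid-induced genes the kinase gene Sgk1 alone was called, with 209 to 237 CPM under TBT and 184 to 196 CPM under AGN194204 (0.23 ± 0.04, adjusted p = 9.9e-04, edgeR), so its groups did not overlap. The 34 tested enzymes of H3K4 and H3K27 methylation had no called member (4 at an unadjusted p under 0.05, none by DESeq2), and Ezh2, the H3K27 methyltransferase, had medians of 121 and 125 CPM against 150.1 CPM under DMSO (interval of the difference -0.12 to 0.06). Osteoblast genes (15 tested), smooth muscle genes (16) and glycolysis genes (26) had none called either, with 4, 2 and 4 at an unadjusted p under 0.05 and none by DESeq2. The 2 adipocyte markers called (of 10), the 2 matrix glycoprotein genes (of 30) and the 1 nuclear receptor (of 22) are Fabp4 and Plin4, Postn and Lox, and Rarb. No member was called among the lists of adipogenesis inhibitors, nuclear receptor coregulators, thermogenic genes, mitochondrial transcripts, heat shock genes, interferon-inducible GTPases and chondrocyte genes (4, 1, 2, 0, 3, 1 and 0 at an unadjusted p under 0.05, none by DESeq2), nor among 19 Wnt genes (3, and 1 by DESeq2).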
